A study of Mus musculus with 6 samples.

Results

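The Hedgehog genes described here are the ligands *Shh*, *Ihh* and *Dhh*, the receptor *Ptch1*, the signal transducer *Smo*, the transcription factors *Gli1*, *Gli2* and *Gli3*, and the decoy receptor *Hhip*. They were chosen by name, with earlier results of these data known, and make up 9 of the 55414 genes in the count table. The study itself reports *Shh* as upregulated in KO, so its value here is not an independent finding. Polyadenylated RNA was sequenced from tdTomato-positive cells sorted from the trunk of mouse embryos at E10.5, in 3 WT and 3 KO libraries. KO embryos lack the *mir-302* microRNA cluster in every cell and came from crosses of *mir-302* heterozygotes. Embryos of both genotypes carried the *Pdx1-Cre* transgene, in which the *Pdx1* promoter drives Cre, and the *Rosa26* LSL-tdTomato reporter. The reporter marks every descendant of a cell in which Cre was once active, so the sorted cells are a lineage and need not be a single cell type. The sources used here do not say how many embryos went into a library, so p-values measure the spread between these libraries.

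Hedgehog ligands are secreted proteins that bind Ptch1 on receiving cells. Free Ptch1 holds back Smo, a membrane protein, and ligand binding releases that block, so that Gli factors activate their target genes. *Ptch1*, *Hhip* and *Gli1* are themselves targets of the pathway and are widely read as its output. In the gut tube, the endoderm makes *Shh* and *Ihh* and the surrounding mesenchyme responds. The pancreatic buds are known for excluding *Shh* from their epithelium while the stomach and duodenum beside them keep it.

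The total counts ran from 17352498 to 26634523 per library. Levels are given in CPM, read counts relative to the library's total after TMM scaling, and 16353 genes with enough counts were compared by edgeR's quasi-likelihood test. *Pdx1*, the pancreatic factor whose promoter drives Cre, was at 90.6 to 106 CPM in WT and 73.1 to 108 CPM in KO. All 17 pancreatic progenitor markers passed the filter, and their summed level was 2150 to 2590 CPM in WT and 2190 to 2830 CPM in KO, with *Cdh1* and *Epcam* the most abundant. Of the 17, 7 were higher and 10 lower in KO. edgeR called none at an adjusted p under 0.05, as it called 0% of all genes. DESeq2 called 2 higher and none lower, beside 4.22% and 0.648% of all genes with an adjusted p. At an unadjusted edgeR p under 0.05, 3 were higher and none lower, beside 6.42% and 3.97% of all genes. *Gata6*, an endodermal factor of the pancreatic buds, was at 10.4, 18.7 and 11.8 CPM in WT and 42.8, 29.8 and 30.4 CPM in KO (adjusted p = 0.132 in edgeR and 3.52e-05 in DESeq2). Its relative *Gata4* was at 173, 249 and 222 CPM in WT and 342, 334 and 322 CPM in KO (adjusted p = 0.14 in edgeR and 0.000919 in DESeq2). *Mnx1*, a factor of the dorsal bud, was at 4.10, 3.41 and 5.87 CPM in WT and 10.6, 16.1 and 4.30 CPM in KO (adjusted p = 0.415 in edgeR). RNA of other cells was present to unequal degrees. Summed gut mesenchyme markers ran from 122 to 796 CPM in WT and 13.2 to 840 CPM in KO, summed blood markers from 1.45 to 13400 and 0.741 to 5290 CPM, and summed liver markers from 750 to 1860 and 633 to 1950 CPM. The table cannot check the deletion. *Mir302a*, *Mir302b*, *Mir302c* and *Mir367* had no count in any library of either genotype, *Mir302d* had 2 counts in KO replicate 3, and the host gene *Larp7* had a log2 fold change of -0.03 (edgeR adjusted p = 0.97).

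The microRNAs lost in KO embryos repress mRNAs that pair with their seed, so mature sequences of some of them are shown with bases 2 to 8 in capitals, as RefSeq lists them on GRCm38.p6. miR-302b-3p lies at chr3:127545275-127545297 and miR-302d-3p at chr3:127545665-127545687, both on the plus strand. These 2 share a seed, whereas miR-367-3p, at chr3:127545779-127545800 on the same strand, has another. miR-302c-3p, not shown, is listed with AGUGCUU at bases 2 to 8.
miR-302b-3p: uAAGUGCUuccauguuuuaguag
miR-302d-3p: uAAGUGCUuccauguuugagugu
miR-367-3p: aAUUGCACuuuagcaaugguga

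Matches to the seed AAGUGCU were searched in the 3′UTR of the annotated transcript with the longest coding sequence (GENCODE M21). The seed of miR-367-3p and that listed for miR-302c-3p were not searched. *Shh*, *Ihh*, *Smo*, *Gli1*, *Gli2* and *Gli3* held no match to AAGUGCU. *Dhh* held a match to bases 2 to 8 at base 707 of a 3′UTR of 2783 bases. *Ptch1*, at base 222 of 3205, and *Hhip*, at base 557 of 6480, each held a match to bases 2 to 7 followed by an A. The 3 sites are shown because they are the places where loss of the seed AAGUGCU could act directly on a Hedgehog mRNA, with the matching letters in capitals and the flanks in lower case. A match is a run of letters and not a measured site. *Ptch1* and *Hhip*, the genes with a match that had enough counts to test, passed neither edgeR nor DESeq2 in either direction.
*Dhh*: agcaggaggAGCACTTggagtcctc
*Ptch1*: gtttgctggGCACTTAcagcagagt
*Hhip*: gaacgttgtGCACTTAgctttttat

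Of the 9 genes, 8 had enough counts to be tested, 6 with a positive and 2 with a negative log2 fold change (KO against WT), and a median of 0.43. Over all genes tested, the median was -0.02 and 45.6% were higher in KO. edgeR called none of the 8 at an adjusted p under 0.05, as it called 0% of all genes. At an unadjusted p under 0.05 it counted 2 of the 8 as higher, *Shh* and *Ihh*, against a background of 6.42% of all genes, and none as lower, against 3.97%. DESeq2, the tool named in the study's methods, gave an adjusted p to 7 of them and called the same 2 ligands higher, against 4.22% of all genes with an adjusted p, and none lower, against 0.648%. In the same 2 genes every KO library lay above every WT library, which held for 8.36% of all genes, and in none did every KO library lie below, which held for 7.99%. *Shh* and *Ihh* had the largest log2 fold changes of the 8, and the receptor, the transducer, the Gli factors and *Hhip* passed neither test.

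**Figure D1:**
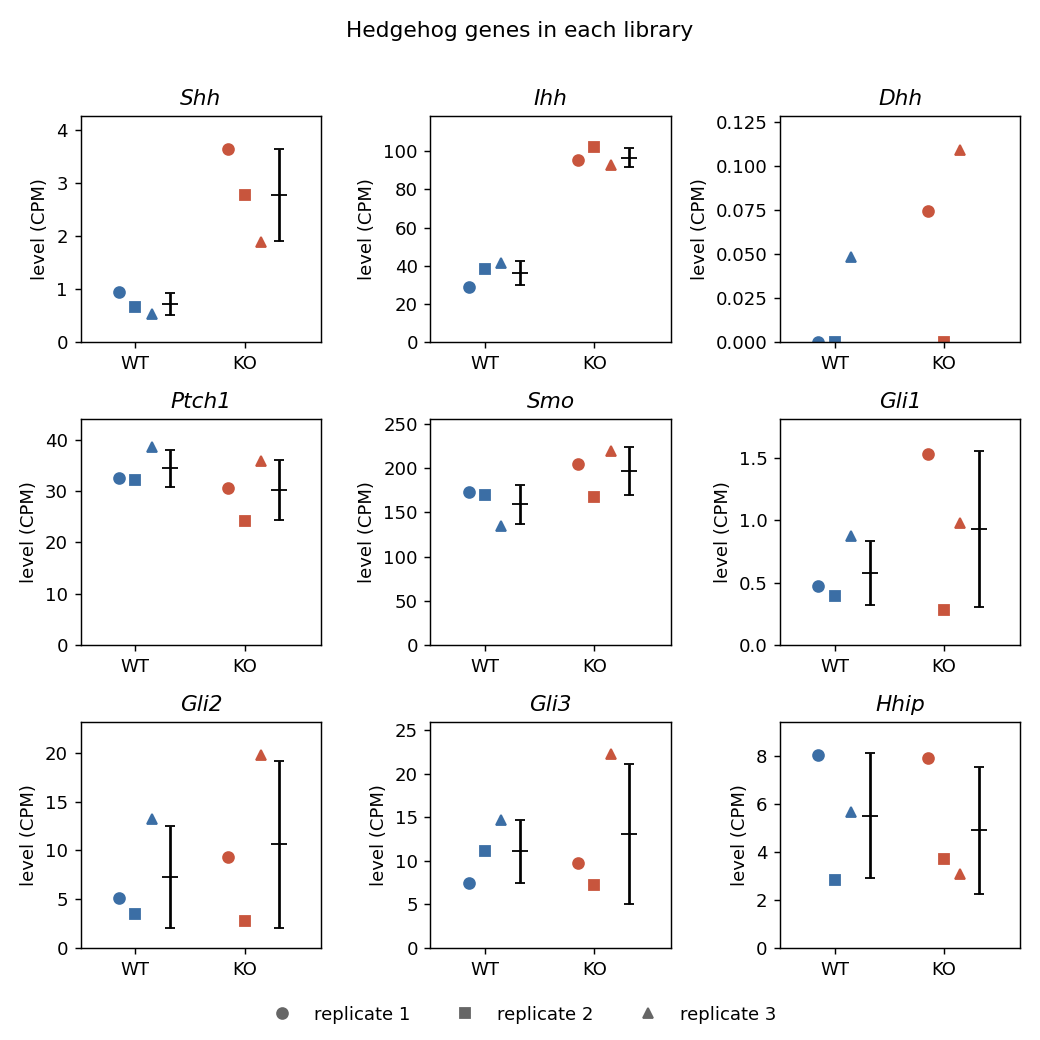
Level of each of the 9 Hedgehog genes in CPM (y axis, from 0) in the 3 WT (blue) and 3 KO (red) libraries, with the marker shape giving the replicate number and black bars the mean and SD, omitted for *Dhh*, which had at most 2 counts in a library. KO libraries lie above all WT libraries in the *Shh* and *Ihh* panels, at 1.90 to 3.65 CPM and 92.7 to 102 CPM, and overlap WT libraries in the others.

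*Ihh* (ENSMUSG00000006538.13), the main Hedgehog ligand of the early endoderm beside *Shh*, measured 29.1, 38.4 and 41.3 CPM in WT and 95.3, 102 and 92.7 CPM in KO, given here and below in the order of replicates 1, 2 and 3. The lowest KO library was thus above the highest WT library, and the spread within each genotype was small beside the gap. WT averaged 36.2 ± 6.37 CPM and KO 96.8 ± 5.08 CPM (SD, n = 3 each), a 2.67-fold difference. On the log2 scale the change was 1.42 (standard error 0.14, 95% interval 1.09 to 1.75), with an adjusted p of 0.0904 in edgeR and of 6.58e-15 in DESeq2. The read counts behind these levels were 617 to 850 in WT and 1703 to 2558 in KO.

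*Shh* (ENSMUSG00000002633.5), the ligand whose absence marks the pancreatic epithelium, was far less abundant. It was at 0.943, 0.670 and 0.534 CPM in the WT replicates and at 3.65, 2.79 and 1.90 CPM in the KO replicates, from 20, 12 and 11 reads and from 98, 49 and 35 reads. Again no KO library overlapped a WT library, although the KO values ranged more widely than those of *Ihh*. The means were 0.716 ± 0.208 and 2.78 ± 0.874 CPM (SD, n = 3 each), a 3.87-fold difference. Its log2 fold change was 1.95 (standard error 0.39, 95% interval 1.03 to 2.87), with an adjusted p of 0.134 in edgeR and 0.00548 in DESeq2. These are bulk libraries, in which a higher level in every cell and a larger share of expressing cells cannot be told apart. Summed blood markers were highest in WT replicate 3 and KO replicate 1, at 13400 and 5290 CPM, followed by KO replicate 3 at 285 CPM. Without the 2 highest, a choice made after the data were seen, the log2 fold change of each ligand was 1.56. In this smaller fit, which called 0 of all genes, the unadjusted edgeR p was 0.0256 for *Shh* and 0.000288 for *Ihh*. The adjusted p was 1 for both.

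*Dhh* (ENSMUSG00000023000.6), the ligand known from the testis and peripheral nerves, had 0, 0 and 1 reads in WT and 2, 0 and 2 reads in KO. All 6 libraries stayed under the 3 reads that a count of 0 allows, and no fold change is given. Counting error alone limits this value.

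Scaled to the longest annotated transcript, *Ihh* supplied nearly all ligand RNA in both genotypes. Its share of the 3 ligands' summed level per kilobase was 97.3%, 98.5% and 98.8% in WT and 96.7%, 97.7% and 98.2% in KO. The share of *Shh* was 2.73%, 1.49% and 1.11% in WT and 3.21%, 2.31% and 1.75% in KO. The shares overlapped between genotypes although both ligands differed in level. In WT the *Shh* level per kilobase was 0.251 ± 0.0731 and in KO 0.977 ± 0.307 CPM per kilobase (SD, n = 3 each), which left even the KO value below that of *Ihh* in WT, at 14.7 ± 2.58.

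RNA of neighbouring organs was looked at beside the ligands, because stomach and duodenum make *Shh*. *Sox2*, a foregut and stomach factor, was at 0.660, 0.782 and 1.55 CPM in WT and 5.14, 4.33 and 2.88 CPM in KO, with a log2 fold change of 2.04 and an adjusted p of 0.137 in edgeR and 0.00128 in DESeq2. Of the 11 gut endoderm markers outside the pancreas 7 were tested, 3 of them higher and 4 lower. Their median log2 fold change was -0.47, and the summed level was 26.4 to 50.1 CPM in WT and 22.3 to 33.4 CPM in KO. *Cdx2*, an intestinal factor, was at 4.15, 11.2 and 5.05 CPM in WT and 5.67, 3.87 and 1.80 CPM in KO, and *Cdx1*, a related factor, which had too few counts for edgeR, was at 0.236, 0.223 and 0.0486 CPM in WT and 0.894, 0.741 and 0.490 CPM in KO, higher in every KO library. *Gcnt3* was lower in every KO library with an unadjusted p of 0.0255 (edgeR adjusted p = 0.361). *Nkx2-1*, a lung and thyroid factor, had no count in WT and 1.75 CPM in KO replicate 1.

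Notochord and floor plate, which also make *Shh*, left little trace in the markers that define them. *Noto* had no count in any library and *T*, at 0.243 CPM, had counts only in WT replicate 3. Without *Shh* itself the list has 8 genes, of which 4 were tested. *Ntn1*, a secreted guidance cue of the floor plate, was at 0.943, 1.68 and 2.38 CPM in WT and 5.44, 2.68 and 3.21 CPM in KO (edgeR adjusted p = 0.378). Among neural markers *Sox1* and *Olig2* had no count, while *Pax6* and *Tubb3*, which endocrine precursors also express, were the most abundant of a summed 42.8 to 87.4 CPM in WT and 49.8 to 110 CPM in KO. The part of cells outside the pancreas in the ligand values was not tested.

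*Ptch1* (ENSMUSG00000021466.13), receptor and pathway target at once, was at 32.6, 32.2 and 38.6 CPM in WT and 30.6, 24.2 and 35.8 CPM in KO. The genotypes overlapped, and the lowest library was KO replicate 2, where *Ihh* was highest. That library was also the lowest in summed gut mesenchyme markers, at 13.2 CPM. The means were 34.5 ± 3.55 and 30.2 ± 5.83 CPM (SD, n = 3 each), and the log2 fold change was -0.19 (standard error 0.17, edgeR adjusted p = 0.816). Its 95% interval, -0.60 to 0.22, lies wholly below those of *Ihh* and *Shh*.

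*Smo* (ENSMUSG00000001761.8), the transducer, was the most abundant member. It was at 173, 170 and 134 CPM in WT and 204, 167 and 219 CPM in KO. KO replicate 2 lay within the WT range and the other 2 KO libraries above it. KO exceeded WT by a log2 fold change of 0.31 (standard error 0.14, 95% interval -0.01 to 0.63), with an unadjusted p of 0.0576 and an adjusted p of 0.497 in edgeR, and an unadjusted p of 0.0345 and an adjusted p of 0.344 in DESeq2.

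Within each library, the level of a ligand was divided by that of *Ptch1*. A difference in scaling between libraries then cancels, except for the part that the CPM added to each level leaves. The log2 ratio of *Ihh* to *Ptch1*, with 0.5 CPM added to each, was -0.16, 0.25 and 0.10 in WT and 1.63, 2.06 and 1.36 in KO. The genotypes did not overlap, and the means differed by 1.62 (0.06 ± 0.21 against 1.68 ± 0.35, SD, n = 3 each). The log2 ratio of *Shh* to *Ptch1* was -4.52, -4.81 and -5.24 in WT and -2.90, -2.91 and -3.92 in KO, also without overlap, a difference of 1.61. For each the two-sided exact permutation p was 0.1, the smallest that 3 libraries against 3 allow, and 0.15 adjusted over the 3 ratios computed. The log2 ratio of *Ihh* to *Shh* was 4.36, 5.05 and 5.34 in WT and 4.53, 4.97 and 5.28 in KO, a difference of 0.01 between overlapping groups (exact permutation p = 1). These ratios compare CPM and not length-scaled levels, so their differences between genotypes, and not their size, carry the comparison. Those that involve *Shh* also depend on the added 0.5 CPM, which is close to its WT level of 0.534 to 0.943 CPM. With 0.1 CPM added, the difference was 1.63 for *Ihh* to *Ptch1*, 2.01 for *Shh* to *Ptch1* and -0.38 for *Ihh* to *Shh*.

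**Figure D2:**
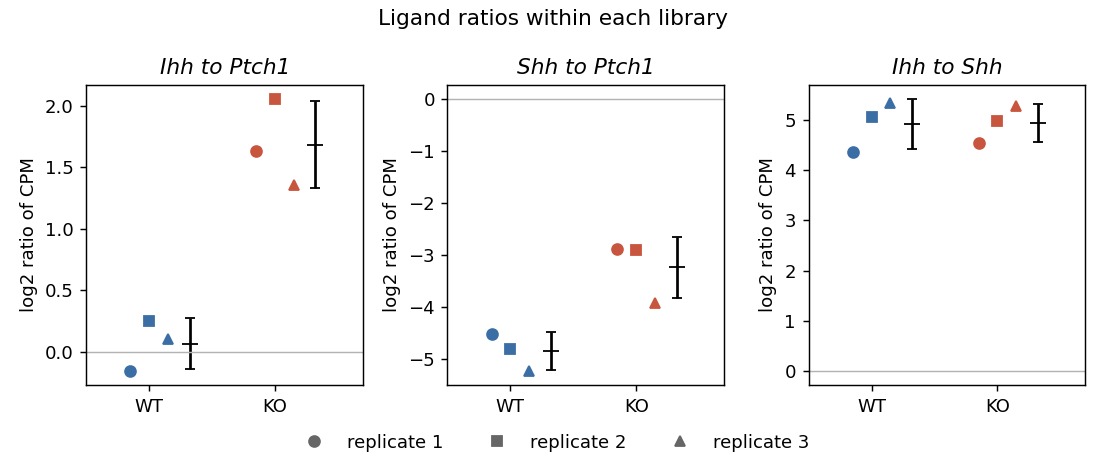
Log2 ratio of the CPM of *Ihh* to *Ptch1*, *Shh* to *Ptch1* and *Ihh* to *Shh* (y axis, 0.5 CPM added) in WT (blue) and KO (red) libraries, with the marker shape giving the replicate number, black bars the mean and SD, and the grey line equal CPM. In the first 2 panels KO libraries lie above WT libraries by 1.62 and 1.61 on average, and in the third the genotypes overlap. With 0.1 CPM added in place of 0.5, the differences were 1.63, 2.01 and, in the third, -0.38.

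The Gli factors carry the signal to the genome, *Gli2* mainly as an activator, *Gli3* mainly as a repressor, and *Gli1* as an activator that is itself induced. *Gli1* (ENSMUSG00000025407.8) was at 0.471, 0.391 and 0.874 CPM in WT and 1.53, 0.285 and 0.980 CPM in KO, from 5 to 41 reads. KO replicate 2 was the lowest of all 6 libraries and KO replicate 1 the highest. The log2 fold change was 0.70 with a 95% interval of -0.83 to 2.22 (edgeR adjusted p = 0.823), so that a difference as large as that of *Ihh* lies within it.

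*Gli2* (ENSMUSG00000048402.15) was at 5.09, 3.52 and 13.2 CPM in WT and 9.32, 2.79 and 19.8 CPM in KO. *Gli3* (ENSMUSG00000021318.16) was at 7.49, 11.1 and 14.7 CPM in WT and 9.73, 7.29 and 22.3 CPM in KO. Both were highest in KO replicate 3 and lowest in KO replicate 2, and varied more within a genotype than between them. The log2 fold change was 0.54 for *Gli2* (95% interval -1.16 to 2.25, edgeR adjusted p = 0.893) and 0.24 for *Gli3* (95% interval -0.80 to 1.28, edgeR adjusted p = 0.931).

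The 3 libraries highest in *Gli2* were also the 3 highest in gut mesenchyme markers. The summed level of these markers was 361, 122 and 796 CPM in WT and 840, 13.2 and 818 CPM in KO. In KO replicate 2, the lowest, the mesenchymal genes *Col1a1*, *Col3a1*, *Prrx1*, *Twist1*, *Barx1* and *Wt1* were at 0. Of the same markers, *Pdgfrb* was at 11.3 CPM there, most of the sum, and *Pdgfra*, *Tcf21* and *Foxf1* were at 0.912, 0.57 and 0.399 CPM. In this library *Gli2* was at 2.79 CPM, *Gli3* at 7.29 CPM and *Ptch1* at 24.2 CPM. *Ihh* was at 102 CPM there, its highest value. With the log2 of the mesenchyme sum as a term in the fit, chosen after the data were seen, the log2 fold change was 0.65 for *Gli2* and 0.27 for *Gli3*, and those of *Shh* and *Ihh* were 1.95 and 1.41. The part of mesenchymal RNA in the levels of the Gli factors was not tested.

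**Figure D3:**
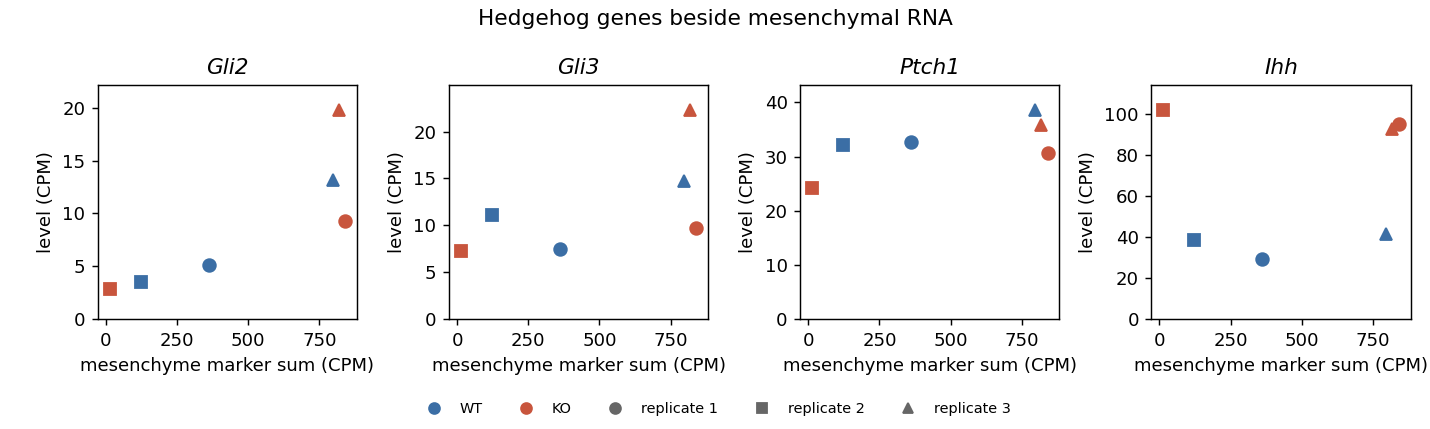
Level of *Gli2*, *Gli3*, *Ptch1* and *Ihh* in CPM (y axes, from 0) against the summed CPM of 13 gut mesenchyme markers (x axis) in each WT (blue) and KO (red) library, with the marker shape giving the replicate number. *Gli2* is lowest in KO replicate 2, whose marker sum is 13.2 CPM, and highest in libraries with sums of 796 to 840 CPM, whereas *Ihh* separates by genotype at low and high sums alike.

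Per kilobase, the order of *Gli2* and *Gli3* differed between libraries. Their shares of the 3 Gli factors' summed level were 42.6% and 50.9%, 26.7% and 68.5%, and 49.7% and 45.0% in WT replicates 1, 2 and 3. In KO replicates 1, 2 and 3 they were 47.3% and 40.1%, 30.4% and 64.5%, and 50.1% and 45.8%. *Gli1* held 4.85% to 6.45% in WT and 4.06% to 12.7% in KO. *Gli3* exceeded *Gli2* in the 3 libraries lowest in mesenchyme markers and *Gli2* exceeded *Gli3* in the other 3.

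*Hhip* (ENSMUSG00000064325.5), which binds ligand without passing on a signal, was at 8.06, 2.85 and 5.68 CPM in WT and 7.94, 3.70 and 3.10 CPM in KO. The genotypes overlapped over nearly their whole range, with replicate 1 the highest in each. The log2 fold change was -0.16 (standard error 0.48, 95% interval -1.30 to 0.97, edgeR adjusted p = 0.955).

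Ordered by mean level per kilobase over the 6 libraries, *Smo* came first with 47.1 CPM per kilobase followed by *Ihh*, with means of 14.7 in WT and 39.2 in KO. In KO these approached each other, at 44.2 to 58.0 for *Smo* and 37.5 to 41.5 for *Ihh*, against 35.5 to 45.7 and 11.8 to 16.7 in WT, and they did not overlap in either genotype. *Ptch1* was next with 3.11, and then *Gli3* with 1.48 and *Gli2* with 1.35, whose ranges overlapped with each other and, through KO replicate 3, with that of *Ptch1*. *Shh*, at 0.614, lay above *Hhip*, at 0.576, by less than the spread of either. *Shh* ranked below *Hhip* in the WT means, 0.251 against 0.609 ± 0.287, and above it in the KO means, 0.977 against 0.542 ± 0.291. *Gli1*, at 0.186, and *Dhh*, at 0.00911, closed the order.

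**Figure D4:**
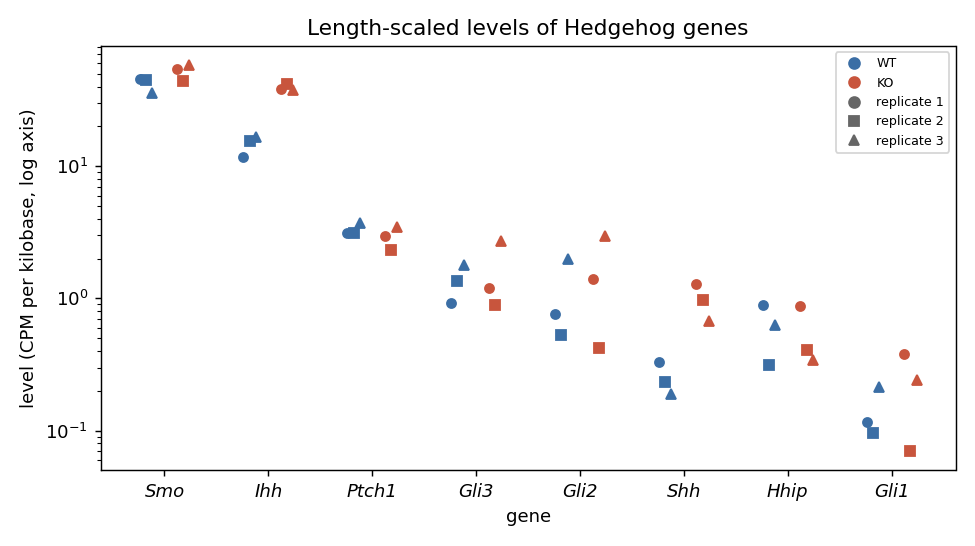
Level of 8 Hedgehog genes in CPM per kilobase of the longest transcript (y axis, log scale), ordered by their mean over the 6 libraries, in WT (blue) and KO (red), with the marker shape giving the replicate number. *Smo* and *Ihh* lie above 11 CPM per kilobase in every library and *Gli1* below 0.4, and *Dhh*, with at most 2 counts, is left out.

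Other genes of the pathway were read from the same fit as lists of known parts. Of 34 genes that release the ligands, help them bind or transmit the signal, all were tested, 17 were higher and 17 lower in KO, and the median log2 fold change was -0.02, the same as over all genes. At an unadjusted p under 0.05, 3 were higher and none lower, beside 6.42% and 3.97% of all genes. DESeq2 gave an adjusted p to 33 of the 34. It called 2 of them higher, both among these 3, and none lower, beside 4.22% and 0.648% of all genes. edgeR called none at an adjusted p under 0.05.

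Among the 6 genes of ligand release, which attach lipid to the ligands or carry them out of the cell, none reached an unadjusted p of 0.05. *Scube3*, a carrier of ligand outside the cell, had the smallest p among those with a higher level (log2 fold change 0.33, edgeR adjusted p = 0.703), and *Hhat*, which attaches palmitate to the ligands, was the gene with a lower level (-0.06, edgeR adjusted p = 0.95). *Disp1*, the transporter that releases them, was at 35.6 to 46.4 CPM in WT and 40.2 to 47.4 CPM in KO.

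Of the 4 genes for further ligand-binding proteins at the cell surface, *Gas1*, a coreceptor, was at 1.37, 1.40 and 1.65 CPM in WT and at 16.3, 2.28 and 9.85 CPM in KO. Every KO library lay above WT. Of the 3 libraries richest in mesenchyme markers, KO replicates 1 and 3 were the highest in *Gas1* and WT replicate 3 was at 1.65 CPM. The log2 fold change was 2.69 (standard error 0.65), with an adjusted p of 0.166 in edgeR and 0.000218 in DESeq2.

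Of the 24 transduction genes, 10 were higher and 14 lower in KO. *Prkaca*, a catalytic subunit of protein kinase A, which phosphorylates Gli proteins and thereby holds the pathway back, was at 4.19, 13.0 and 6.80 CPM in WT and 51.3, 46.5 and 24.5 CPM in KO. No KO library overlapped WT, and the log2 fold change of 2.36 (standard error 0.45) had an adjusted p of 0.132 in edgeR and 3.31e-07 in DESeq2. *Prkacb*, the gene of another catalytic subunit, was more abundant and at 96.4 to 121 CPM in WT and 102 to 117 CPM in KO. *Kif7*, a ciliary kinesin that controls Gli processing, was at 0.990, 1.90 and 2.82 CPM in WT and 6.26, 3.93 and 2.67 CPM in KO (unadjusted p = 0.0393, edgeR adjusted p = 0.435). *Sufu*, which binds and restrains Gli proteins, had a log2 fold change of -0.11 (edgeR adjusted p = 0.852).

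Of 12 genes known as Hedgehog targets in other tissues, 9 were tested, 8 of them higher, with a median log2 fold change of 0.38, beside 45.6% higher and a median of -0.02 over all genes tested. None passed an adjusted p of 0.05 in edgeR or DESeq2. At an unadjusted p under 0.05, 2 were higher and 1 lower, beside 6.42% and 3.97% of all genes. *Mycn*, a growth regulator (55.8, 55.9 and 65.0 CPM in WT, 85.7, 60.6 and 102 CPM in KO, edgeR adjusted p = 0.40), and the nuclear receptor *Nr2f2* (27.9, 28.6 and 32.7 CPM in WT, 44.8, 34.7 and 36.7 CPM in KO, edgeR adjusted p = 0.403) were the higher genes. *Ccnd1*, a cyclin of the G1 phase, was lower, at 172, 137 and 169 CPM in WT and 94.8, 145 and 81.7 CPM in KO (unadjusted p = 0.0288, edgeR adjusted p = 0.38). *Foxf1*, the mesenchymal target closest to gut Hedgehog signalling, was at 0.189, 1.84 and 1.60 CPM in WT and 35.3, 0.399 and 1.31 CPM in KO, a value that rests on KO replicate 1. *Foxf2*, *Foxl1* and *Nkx2-3* had too few counts to test, and their highest values were also in KO replicate 1. *Bmp4*, a mesenchymal target, was lowest in KO replicate 2, at 0.456 CPM, and highest in KO replicate 1, at 31.3 CPM.

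**Figure D5:**
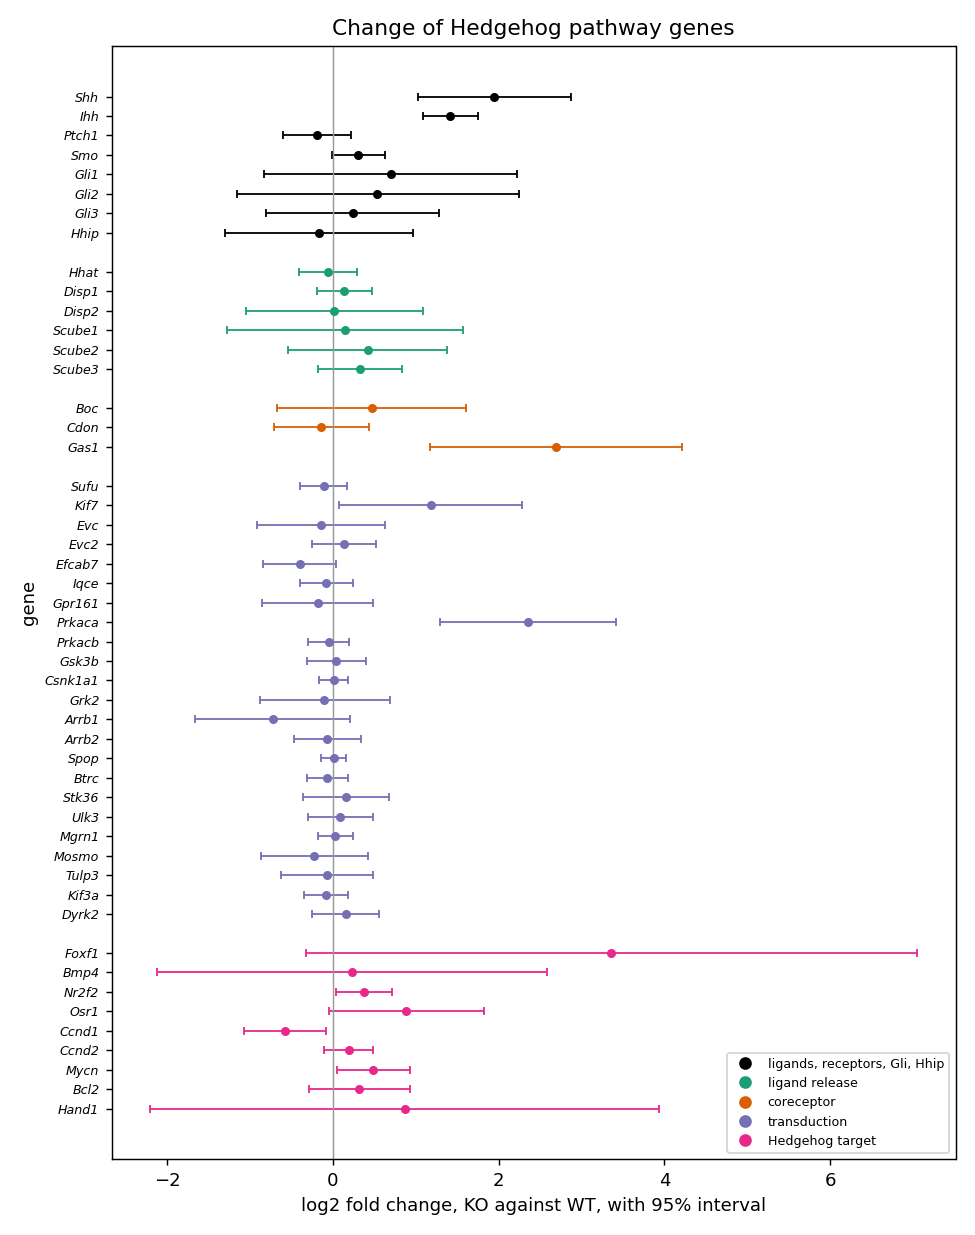
Log2 fold change of KO against WT (x axis) with its 95% interval from edgeR for the 8 tested Hedgehog genes (black) and further pathway genes, coloured by role (y axis). The intervals of *Shh*, *Ihh*, *Gas1* and *Prkaca* lie above 1 and those of *Ptch1*, the Gli factors and *Hhip* span 0.

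The genes most like each of *Ihh*, *Shh* and *Ptch1* were taken as those with the highest Pearson correlation of log2 CPM over the 6 libraries, among 14663 genes with a mean of at least 1 CPM. With so few points per gene and so many genes searched, high values are bound to occur, and these are descriptions. *Ralgapa1* (r = 0.996), *Lrig3* (0.990) and *Gm13552* (0.988) were most like *Ihh*. *Suz12* (0.997), *A4galt* (0.993) and *Inpp5a* (0.991) were most like *Shh*. *Kif24* (0.993), *Car13* (0.993) and *Sf3b1* (0.992) were most like *Ptch1*. Of these, *Lrig3* moved most, from 8.43 to 28.6 CPM on average (log2 fold change 1.76, edgeR adjusted p = 0.0846).

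GC-rich RNA was common among the members but not shared by all. In 6 of the 9, at least 75% of some 200 successive bases of the transcript were G or C, with a maximum of 80.0% in *Ihh*, 77.5% in *Shh*, 82.5% in *Ptch1*, 78.0% in *Smo*, 77.0% in *Gli1* and 75.5% in *Gli2*, whereas *Dhh*, *Gli3* and *Hhip* stayed below 75%. The 3143 tested genes that reach 75% had a median log2 fold change of 0.14 and the 13112 that do not one of -0.05. With offsets for a smooth trend on this GC share, the log2 fold change of *Ihh* was 1.13 (standard error 0.14, edgeR adjusted p = 0.154), that of *Shh* 1.80 (adjusted p = 0.174) and that of *Smo* 0.12. That of *Ptch1* became -0.54 (unadjusted p = 0.0379, edgeR adjusted p = 0.446).

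The 250 bases before the start of *Ihh*, the ligand with the clearest difference, and of *Ptch1*, the receptor through which Gli factors report signalling, are shown from RefSeq with each CpG in capitals. A promoter was in the table for 7 of the 9 genes. That of *Ihh* lies at chr1:74951673-74951922 and that of *Ptch1* at chr13:63565736-63565985, both GRCm38.p6 and on the minus strand. They hold 24 and 41 CpG at 72.0% and 78.4% GC, against medians of 6 CpG and 52.4% GC over 32851 promoters, of which 89.3% and 99.1% hold as many CpG or fewer.
*Ihh*: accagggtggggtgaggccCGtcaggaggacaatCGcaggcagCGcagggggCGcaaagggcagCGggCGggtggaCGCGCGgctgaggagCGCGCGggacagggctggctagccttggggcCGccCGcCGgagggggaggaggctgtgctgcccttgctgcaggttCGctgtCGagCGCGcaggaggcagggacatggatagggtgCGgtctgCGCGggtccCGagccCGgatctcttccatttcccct
*Ptch1*: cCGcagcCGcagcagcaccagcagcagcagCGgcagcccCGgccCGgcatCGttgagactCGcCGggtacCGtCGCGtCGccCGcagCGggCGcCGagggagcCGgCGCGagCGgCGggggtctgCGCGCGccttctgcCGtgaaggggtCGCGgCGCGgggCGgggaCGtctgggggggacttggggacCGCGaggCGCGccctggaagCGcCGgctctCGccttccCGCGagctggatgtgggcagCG

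The Gli consensus GACCACCCA was searched on both strands of the promoters, from 250 bases before to 50 bases after each start, as was its core CCACCCA, which lies within it. Of all promoters, 0.253% hold the consensus and 9.3% the core. Neither was found in the 7 member promoters. No match says only that these letters are not in this window.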

How the data were processed

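Genotypes and replicate numbers of the 6 libraries are those of the labels. Libraries were made with SMART-seq v4 and Nextera XT. The authors removed low-quality bases, aligned reads with STAR (default settings, GRCm39) and counted them per gene with GenomicAlignments, and they deposited whole-number read counts per gene and library, not normalized. Annotation, strand handling and tool versions are not given in the sources used here, and reads shared with overlapping genes cannot be told apart.

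The counts were fitted with filterByExpr, TMM, glmQLFit and glmQLFTest of edgeR 4.0.16 (R 4.3.3), with no term but genotype. Benjamini-Hochberg adjustment was made over all 16353 genes tested, at a threshold of 0.05, and DESeq2 1.42.0 was the alternative test. Ensembl identifiers were matched to symbols for 93.99% of genes. Transcript lengths, GC stretches and 3′UTRs came from GENCODE M21 (GRCm38), so no gene coordinates of the counted annotation are given. Simulated counts with 200 genes changed 4-fold, for the comparison of KO with WT over 16353 genes, gave 153 calls in edgeR, 145 of them changed genes, and 220 in DESeq2, 162 of them changed genes. The members and lists were chosen with earlier results of these data known. Genes named from the lists are those with an unadjusted edgeR p under 0.05 or the smallest p in each direction, and *Disp1*, *Prkacb*, *Sufu*, *Foxf1*, *Bmp4*, *Sox2*, *Gata4*, *Gata6*, *Mnx1*, *Cdx1*, *Cdx2*, *Gcnt3*, *Nkx2-1* and *Ntn1* were named after their values were seen. The replicates were compared in pairs, and none agreed within sampling noise. Some genes that this rule names are not reported here. Small RNA libraries were not analysed here.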

Additional observations from a re-analysis of the deposited data

How the results depend on the processing

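*Shh* and *Ihh* kept their direction and an unadjusted p under 0.05 in edgeR or DESeq2 under each alternative run, with log2 fold changes of 1.72 to 2.20 and 1.28 to 1.55 when each library was left out in turn. Their adjusted p depended on the setting. Without the filter on low counts, edgeR called 264 genes, 241 of them higher, among them *Ihh* (adjusted p = 0.00773) as 1 Hedgehog gene and, as 2 further pathway genes, *Gas1* and *Prkaca*. DESeq2 called 699 genes, 606 of them higher, with 2 Hedgehog genes (*Shh* and *Ihh*) and 2 further pathway genes (*Gas1* and *Prkaca*). Leaving out each library in turn gave 0 to 217 genes, 0 to 1 Hedgehog genes and 0 to 1 further pathway genes. The 217 came without WT replicate 2 and included *Ihh* (adjusted p = 0.0315) and *Prkaca*. The other settings called 0 genes. The cause was not tested.

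Of 119 log2 fold changes of members under alternatives, 110 kept their direction and side of the threshold, 4 passed it and 5 changed sign. *Gli2* went to -0.22 and *Gli3* to -0.35 without KO replicate 3, and *Hhip* to 0.21, 0.03 and 0.11 without WT replicate 1, KO replicate 2 and KO replicate 3. Over the 6 libraries left out in turn, *Gli2* ranged from -0.22 to 1.34, *Gli3* from -0.35 to 0.53 and *Hhip* from -0.69 to 0.21. The difference in the ratio of *Ihh* to *Shh* was -0.38 with 0.1 CPM added and -0.27 to 0.22 when each library was left out. For *Ihh* to *Ptch1* it was 1.43 to 1.78 when each library was left out, lowest without KO replicate 2. The level of *Ptch1* per kilobase was 4.18 with the transcript of the longest coding sequence. WT replicate 3 and KO replicate 1, the libraries highest in hemoglobin, were left out together, a choice made after the data were seen. *Shh* and *Ihh* then each had a log2 fold change of 1.56 and an edgeR adjusted p of 1. Their unadjusted edgeR p was 0.0256 and 0.000288.

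With the replicate number as a block, *Shh* had a log2 fold change of 1.94 and *Ihh* of 1.43, both with an edgeR adjusted p of 0.172, and 0 genes were called. Same-numbered libraries deviated together with correlations of -0.21, 0.29 and 0.083, so the numbers were not taken as pairs. WT replicate 2 and KO replicate 1 share the main part of a library code whose meaning is not stated. Its first digit was the same in WT replicates 1 and 2 and KO replicate 1, and another in WT replicate 3 and KO replicates 2 and 3. With this digit as a term, the log2 fold change was 2.15 for *Shh* and 1.37 for *Ihh*, both with an edgeR adjusted p of 0.119. Low counts limit *Shh*, *Gli1* and *Dhh*.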
